A study of Mus musculus with 8 samples.

Results

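Cardiac fibroblasts were followed here through 10 marker genes on arrays of heart RNA. Of the genes, 4 mark the resting cell (Pdgfra, Tcf21, Thy1 and Gsn) and 6 mark its activated states (Meox1, Fap, Pdpn, Cthrc1, Srpx2 and C1qtnf3). The genes were taken by symbol, with 1 probe set each, and make up 10 of the 22180 genes measured and 10 of the 15086 whose mean signal reached the filter. They were selected by their known role in fibroblasts and on measured values of these same arrays, the knockout-minus-control contrast included. Those differences are therefore given as a description, and counts of members that passed a test over all genes are not evidence about them.

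The hearts were taken from C57Bl6N males 1 week after TAC, short for transverse aortic constriction, in which a suture narrows the aortic arch and loads the left ventricle with pressure. There were 4 CITED4 knockout hearts (C4KO_TAC) and 4 floxed control hearts (F/FCtr_TAC), in which the targeted allele is flanked by recombination sites. All 8 samples were labelled as taken after TAC, so no unloaded heart was part of the comparison. Ages, the Cre driver and the Cre status of the controls were not stated in the labels. CITED4 is a transcriptional co-regulator. Separate animals are implied by the numbered hearts but not stated, so the spread between samples may be partly technical.

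In the unloaded heart, resting fibroblasts carry the receptor for platelet-derived growth factor (PDGF) on their surface and keep a thin collagen network in repair. Under load or after injury they proliferate, secrete collagens and cross-linking enzymes and, for a part of them, take on contractile fibres as myofibroblasts. Transforming growth factor beta and mechanical stretch are the best known drivers of that passage. In bulk RNA, more cells of a type and more RNA per cell cannot be told apart.

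Promoter sequence was at hand for 6 members, 3 of which are shown: C1qtnf3 and Srpx2, activation genes with wide ranges between hearts, and Tcf21, the resting gene that moved with them. Each is the 300 base window from 250 bases before to 50 bases after the start of transcription, from RefSeq on GRCm38.p6, printed 5′ to 3′ along the gene. Capitals mark matches on either strand to the E-box CANNTG, bound by basic helix-loop-helix factors such as TCF21, the AP-1 site TGANTCA, the TEAD site GGAATG and the TATA box TATAAA.
C1qtnf3, chr15:10952082-10952381, plus strand: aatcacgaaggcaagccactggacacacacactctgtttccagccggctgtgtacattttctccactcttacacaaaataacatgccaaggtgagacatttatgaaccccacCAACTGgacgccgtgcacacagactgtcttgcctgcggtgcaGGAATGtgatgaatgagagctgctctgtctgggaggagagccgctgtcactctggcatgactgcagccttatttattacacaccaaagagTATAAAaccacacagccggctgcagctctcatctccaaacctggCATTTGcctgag
Srpx2, chrX:133908175-133908474, plus strand: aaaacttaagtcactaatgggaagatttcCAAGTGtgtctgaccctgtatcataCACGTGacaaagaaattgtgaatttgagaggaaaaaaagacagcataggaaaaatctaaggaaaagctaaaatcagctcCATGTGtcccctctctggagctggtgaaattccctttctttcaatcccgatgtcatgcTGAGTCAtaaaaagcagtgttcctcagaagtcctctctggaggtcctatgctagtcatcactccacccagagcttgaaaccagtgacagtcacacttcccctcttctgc
Tcf21, chr10:22820094-22820393, minus strand: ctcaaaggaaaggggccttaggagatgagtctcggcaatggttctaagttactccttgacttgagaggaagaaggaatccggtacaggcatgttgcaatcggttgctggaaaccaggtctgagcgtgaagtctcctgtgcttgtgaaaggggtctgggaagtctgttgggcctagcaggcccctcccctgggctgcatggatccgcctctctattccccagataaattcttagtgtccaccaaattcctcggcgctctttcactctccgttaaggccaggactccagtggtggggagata

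The C1qtnf3 window held a TEAD match and a TATA match together with 2 E-boxes, and the Srpx2 window held an AP-1 match and 3 E-boxes. None of these letters occurred in the Tcf21 window, and the CArG box, the serum response factor site, was in none of the 3 windows. Over all 32851 windows of the same length, 72.3% held an E-box, 7.81% the AP-1 match, 14.7% the TEAD match, 13.6% the TATA match and 1.63% a CArG box. The matches are a description of the letters only.

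Across the series the array medians lay between 4.29 and 4.33 (log2 signal), and with 8 arrays the precision of every value is limited by their number. Cited4 itself lay at 5.89, 5.76, 6.05 and 6.22 in control hearts 1 to 4 and at 5.26, 5.15, 4.83 and 5.02 in knockout hearts 1 to 4. Its values did not overlap, a difference of -0.91 ± 0.12 (log2, SE) with an exact two-sided permutation p = 0.0286, the smallest that 4 against 4 hearts allow, and a limma adjusted p = 0.277. Some hearts stood apart: knockout 1 and knockout 4 had the highest mean signals of the activation markers and control 1 followed them. Knockout 2 carried atrial transcripts, with Myl7 at 9.02 against 4.03 to 5.04 in the other 7 hearts.

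All 6 activation markers were higher on average in the knockout hearts and 3 of 4 resting markers were too, with Gsn alone lower. The median difference was 0.84 (log2) over the activation markers and 0.19 over the resting ones, against 0.00 over all 15086 genes tested. Meox1 and Pdpn were the 2 members whose knockout values all lay above the control values, where 2.33% of all genes did so in that direction and 2.9% in the other. Without control 1, Fap and Srpx2 joined them, making 4 members, against 7.28% of all genes. Cthrc1, C1qtnf3 and Srpx2 were the 3 members with a difference of at least 1, against 0.172% of all genes. After limma with Benjamini-Hochberg adjustment over all genes, 0 of the 10 members passed an adjusted p of 0.05, as did 0% of all genes, while 1697 genes had an unadjusted p under 0.05. The same test without moderated variances called 0 genes as well, with 1327 under an unadjusted 0.05. With the leading principal component of the residuals in the limma model, Cthrc1, Srpx2, Meox1 and Tcf21, 4 of the 10 members, passed, as did 2.35% of all genes. That component left the member differences unchanged and lowered their SE, for Cthrc1 from 0.59 to 0.17. Because the members were picked with this contrast in view, the counts of members in this paragraph carry no evidence of their own.

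**Figure D1:**
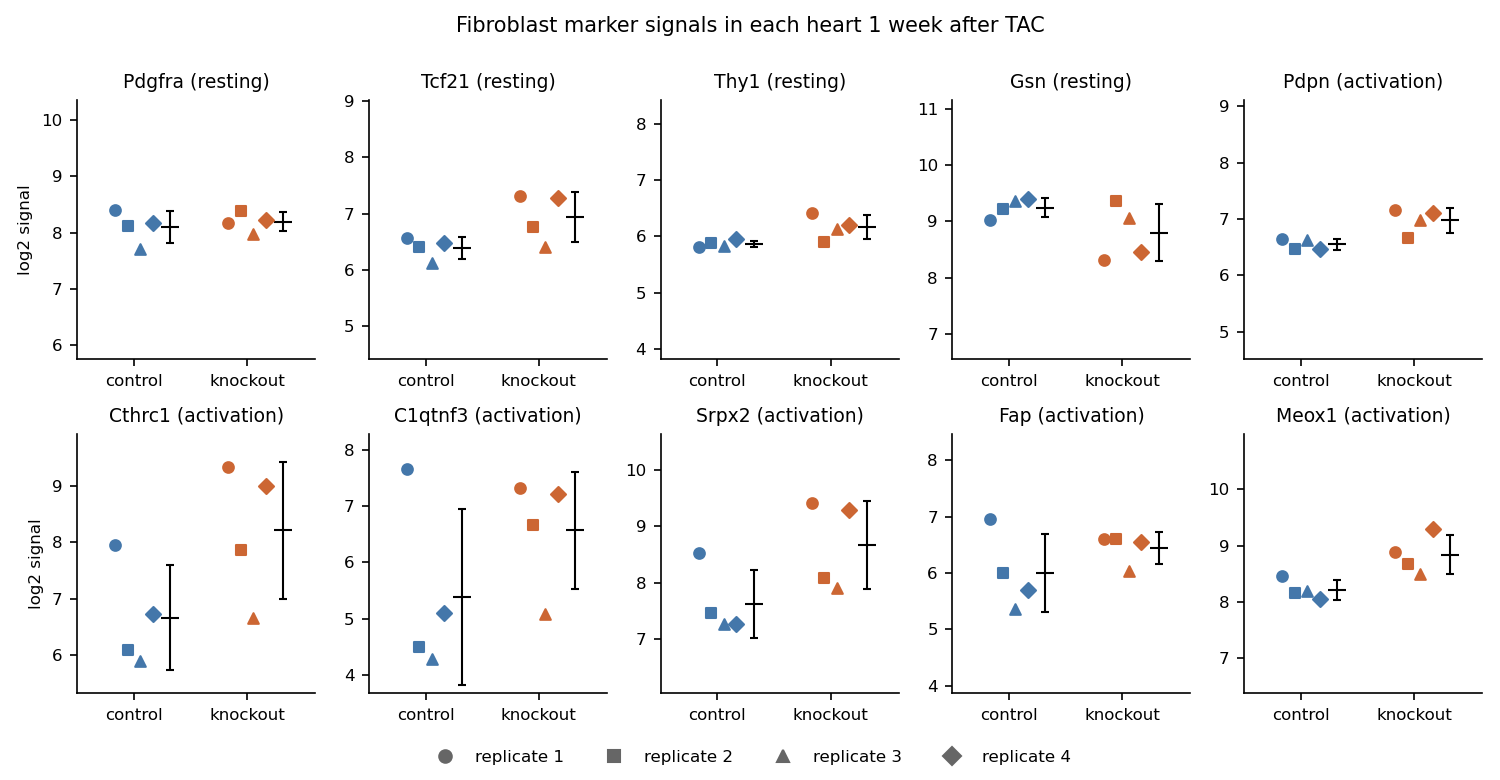
Log2 signal of the 10 fibroblast markers in each heart (y axis, the same span of log2 units in every panel), control in blue and knockout in orange, with the marker shape giving the replicate number and black bars the mean ± SD of 4 hearts. Cthrc1, C1qtnf3, Srpx2 and Fap spread widely within the control group with control 1 the highest, whereas the Meox1 and Pdpn groups do not overlap.

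Pdgfra encodes PDGF receptor alpha, the tyrosine kinase used to sort resting cardiac fibroblasts. Its signal was 8.40, 8.13, 7.71 and 8.17 in control hearts 1 to 4 and 8.17, 8.39, 7.98 and 8.23 in knockout hearts 1 to 4. All knockout hearts lay inside the control range, control 1 being the highest and control 3 the lowest of the 8 hearts. Means were 8.10 ± 0.29 and 8.19 ± 0.17 (SD, n = 4), a difference of 0.09 ± 0.14 (SE) that turned to -0.04 without control 3. With 89.0% of the tested genes below it in mean signal, this receptor gene was well measured.

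Tcf21, the helix-loop-helix factor that cardiac fibroblasts need to form from the epicardium, was at 6.56, 6.40, 6.12 and 6.48 in the controls. In knockout hearts 1 to 4 it was at 7.31, 6.76, 6.40 and 7.28. Knockout 1, 2 and 4 exceeded all controls, and knockout 3 lay within them. The difference was 0.55 ± 0.20 (SE), a 1.46-fold higher signal, and 0.19 without knockout 1 and 4.

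Thy1 encodes a surface glycoprotein of fibroblasts that T cells and neurons carry as well. Control values were 5.82, 5.88, 5.82 and 5.95, a range of only 0.13 (log2), and knockout values were 6.42, 5.90, 6.13 and 6.21. Knockout 1, 3 and 4 lay above every control and knockout 2 lay among them, for a difference of 0.30 ± 0.11 (SE). It was 0.15 without knockout 1 and 4 and 0.39 without knockout 2. T cell genes had low signals: Cd3d, Cd3g and Cd2, 3 of 6 measured, did not reach the filter of 3.80, and the summed linear signal of the list was 82.9 to 94.3 in controls and 81.2 to 97.6 in knockouts. Of 4 Schwann cell and nerve genes measured, the sum was 63.7 to 72.8 in controls and 72.5 to 80.8 in knockouts, and their part in the Thy1 values was not tested.

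Gsn, which encodes the actin-severing protein gelsolin, ran the other way from the rest of the members. Controls were at 9.02, 9.21, 9.36 and 9.39 and knockout hearts 1 to 4 at 8.31, 9.37, 9.06 and 8.45. The low values belonged to knockout 1 and 4, the pair with the highest activation markers, while knockout 2 and 3 lay inside the control range. The difference of -0.45 ± 0.21 (SE), or 73.4% of the control signal, was -0.28 without knockout 1 and -0.03 without knockout 1 and 4 together. Without knockout 2, the highest knockout heart for Gsn, it was -0.64. Gelsolin is made by many cells of the heart, so this signal is not that of fibroblasts alone.

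Meox1, a homeobox factor known as a switch of fibroblast activation under pressure load, separated the 2 groups. It lay at 8.45, 8.15, 8.20 and 8.05 in control hearts and at 8.88, 8.67, 8.50 and 9.30 in knockout hearts. The lowest knockout value exceeded the highest control value by 0.04 (log2), and knockout 4 was the highest. Means of 8.21 ± 0.17 and 8.84 ± 0.35 (SD) gave a difference of 0.63 ± 0.16 (SE), a 1.54-fold higher signal, and 0.37 without knockout 1 and 4. The gene's closest relative Meox2 differed by -0.07 ± 0.15 (SE).

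Fap encodes fibroblast activation protein, a surface peptidase that cleaves after proline and is used to target activated fibroblasts. Control values of 6.97, 6.00, 5.36 and 5.69 spanned more than the knockout values of 6.61, 6.61, 6.03 and 6.56. The highest heart of all was control 1, and without it the difference of 0.45 ± 0.30 (SE) became 0.77. Without control 3, the lowest heart, the difference was 0.23.

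Pdpn encodes podoplanin, a mucin-type membrane protein that also marks lymphatic endothelium and mesothelium. It was at 6.64, 6.46, 6.64 and 6.47 in controls and at 7.16, 6.66, 6.98 and 7.12 in knockouts, and the groups did not overlap, by a margin of 0.025. The difference was 0.43 ± 0.11 (SE), and 0.27 without knockout 1 and 4. Markers of the other cells that carry it are given beside it: of 5 lymphatic genes 3 were higher and 2 lower (median 0.06), from Lyve1 at -0.46 ± 0.34 to Mmrn1 at 0.38 ± 0.14 (SE). The summed lymphatic signal was 648.7 to 1007 in controls and 541.9 to 973.7 in knockouts. For the epicardial and mesothelial list, 2 of 4 tested genes were higher (median 0.08), Msln, Krt19 and Lrrn4 were below the filter, and the sums were 193.1 to 214.4 and 198.4 to 230.2. Their part in the Pdpn values was not tested.

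The 3 genes of secreted proteins had the widest ranges. Cthrc1, a glycoprotein with a short collagen repeat made by matrix-producing fibroblasts after injury, was at 7.95, 6.10, 5.89 and 6.72 in controls and at 9.35, 7.86, 6.66 and 9.005 in knockouts. Knockout 1 stood 11.0-fold (linear signal) above control 3, and knockout 2 and 3 lay within the control range. Means of 6.67 ± 0.93 and 8.22 ± 1.22 (SD) gave a difference of 1.55 ± 0.59 (SE), a 2.93-fold higher signal, and 0.60 without knockout 1 and 4.

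Srpx2, which encodes a secreted sushi-repeat protein, shared its 4 highest hearts with Cthrc1, knockout 1 and 4, control 1 and knockout 2. Its values were 8.53, 7.46, 7.26 and 7.26 in controls and 9.41, 8.09, 7.90 and 9.28 in knockouts. Every knockout heart exceeded controls 2 to 4, but control 1 was above knockout 2 and 3. The difference was 1.05 ± 0.39 (SE), or 2.06-fold, and 0.37 without knockout 1 and 4.

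C1qtnf3, a secreted relative of complement C1q also called CTRP3, was the member for which a single control heart weighed most. Control 1 reached 7.66, the highest of all 8 hearts, against 4.49, 4.29 and 5.10 in the other controls. Knockout hearts were at 7.33, 6.67, 5.08 and 7.21, so that all 4 lay inside the wide control range and knockout 3 was close to control 4. The difference was 1.19 ± 0.72 (SE) with all hearts, 1.94 without control 1 and 0.49 without knockout 1 and 4. Among relatives of the gene, C1qtnf6 differed by 0.35 ± 0.12, C1qtnf2 by 0.39 ± 0.14 and C1qtnf9 by -0.14 ± 0.16 (SE).

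**Figure D2:**
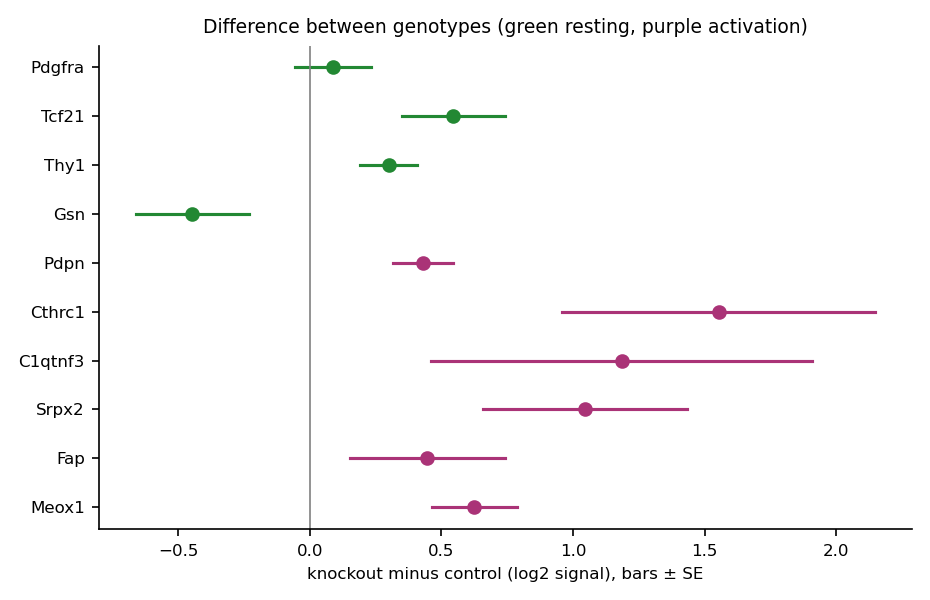
Knockout minus control difference of each marker (x axis, log2 signal; 4 hearts per group), with points for the difference and bars for ± 1 limma SE. Activation markers (purple) all lie to the right of 0 and Gsn alone lies to the left, and the bars of Cthrc1 and C1qtnf3 are the longest (SE 0.59 and 0.72).

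Spread within each genotype is given as a description too, since the members were selected on values of these arrays. In the control group alone the SD of C1qtnf3 was 1.55, that of Cthrc1 0.93, of Fap 0.69 and of Srpx2 0.61, each above the SD of at least 99.6% of the tested genes. Pdpn and Thy1 were at the quiet end, with control SDs of 0.10 and 0.06 that exceeded those of 36.9% and 13.8% of genes. Within the knockout group Cthrc1, C1qtnf3 and Srpx2 again had SDs above at least 99.6% of genes, whereas that of Fap, 0.28, exceeded 87.2%.

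Knockout 1 ranked the first or the second of 8 hearts for each activation marker, while control 1 ranked from 1 (Fap and C1qtnf3) to 5 (Meox1 and Pdpn). An activation score, the mean log2 deviation of the 6 genes from their means over the 8 hearts, was 0.52, -0.74, -0.91 and -0.63 in controls 1 to 4. In knockouts 1 to 4 it was 0.94, 0.25, -0.32 and 0.90. Knockout 1 and 4 lay above all controls, knockout 2 and 3 lay between control 1 and the other controls, and control 1 ranked the third of 8. Group means differed by 0.88, by 1.20 without control 1, and by 0.40 without knockout 1 and 4. Leaving out all 3 of these hearts, an alternative chosen after seeing the data, gave 0.72, and all 6 genes were still higher in the knockout.

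**Figure D3:**
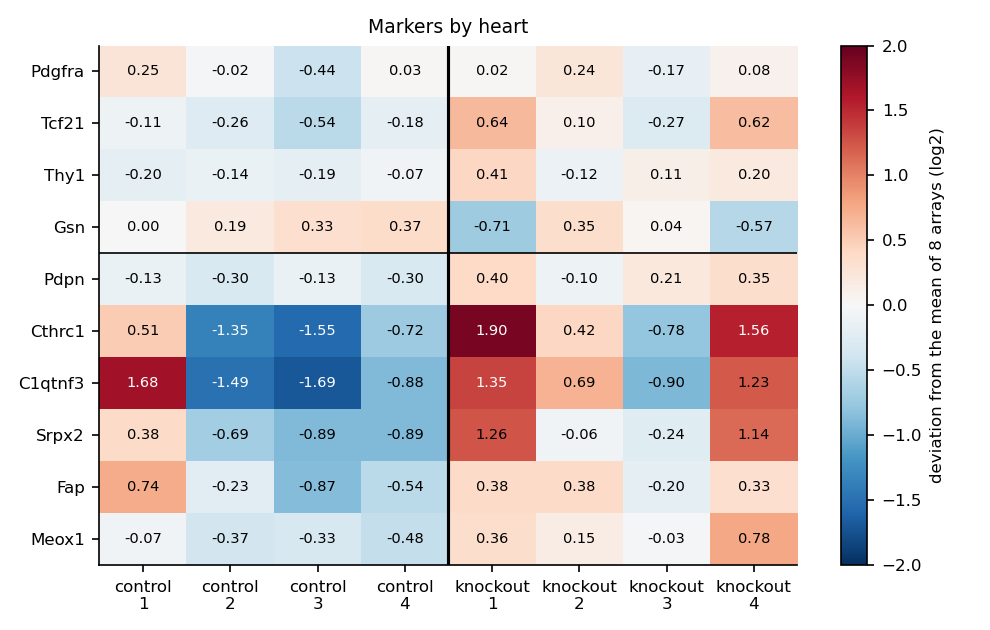
Deviation of each marker in each heart from that gene's mean over 8 hearts (colour and printed value, log2), resting genes above the horizontal line and controls left of the vertical line. Knockout 1, knockout 4 and control 1 are warm for Cthrc1, C1qtnf3, Srpx2 and Fap (knockout 2 less so), and Gsn is cold only in knockout 1 and 4 (-0.71 and -0.57).

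As a description over 8 hearts, the 15 pairs of activation markers had Pearson correlations from 0.41 to 0.96 (median 0.83). With each group's mean removed the median was 0.73 (range 0.10 to 0.93), so hearts of 1 genotype also varied along this line. Cthrc1 and Srpx2 were the closest pair (r = 0.96, and 0.93 with group means removed). Fap and Pdpn were the least alike (0.41 and 0.10). The points share the between-array normalization.

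Resting markers did not vary as 1 group. Their 6 pairwise correlations ran from -0.86 to 0.79 (median -0.08), since Tcf21 and Thy1 each opposed Gsn. By rank that opposition was weaker, with rho = -0.52 for Tcf21 and -0.43 for Thy1. Tcf21 followed the activation score (r = 0.90, rho = 0.905, and 0.83 with group means removed), with Cthrc1 its closest member (r = 0.95). It remained at 0.78 without knockout 1 and 4. Gsn went against the score (r = -0.81, rho = -0.74), and r was -0.46 without those hearts. For Thy1 the value of 0.63 became -0.10 without them, so that relation rests on those hearts. Pdgfra lay between (r = 0.63, and 0.81 without them) and was most like Fap (r = 0.84).

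**Figure D4:**
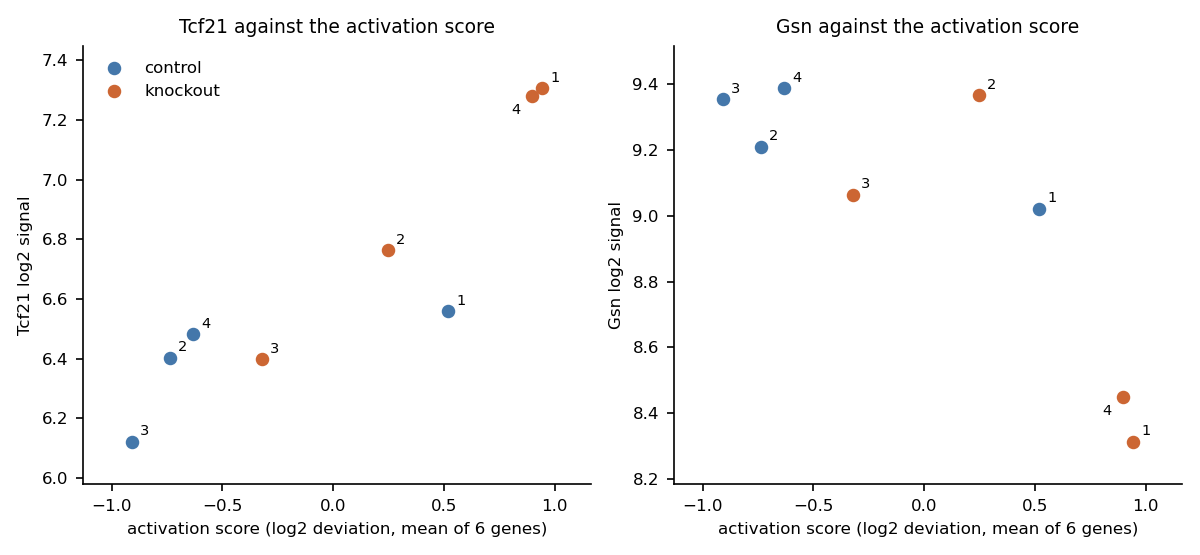
Log2 signal of Tcf21 (left) and Gsn (right) against the activation score of the same heart (x axis, mean log2 deviation of 6 genes), controls blue, knockouts orange, with replicate numbers beside the points. Tcf21 is highest (7.31 and 7.28) and Gsn lowest (8.31 and 8.45) in knockout 1 and 4, the hearts with the highest scores.

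The resting score, built the same way from 4 genes, therefore averaged opposite movements and stayed near 0. It was -0.01, -0.06, -0.21 and 0.04 in controls and 0.09, 0.14, -0.07 and 0.08 in knockouts, a difference of 0.12. It was 0.31 without Gsn, -0.019 without Tcf21 and 0.07 without control 3. The activation score exceeded the resting score by 0.53, -0.68, -0.70 and -0.67 in controls 1 to 4 and by 0.85, 0.10, -0.25 and 0.82 in knockouts 1 to 4. The group means of that gap differed by 0.76, and by 0.30 without knockout 1 and 4.

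Other markers of activated fibroblasts, from a list drawn up with earlier results of these data known, went with the 6 members. Of 24 measured genes 23 reached the filter, of which 22 had a higher knockout mean and 1 a lower one (median 0.80), and 0 passed over all genes with limma. Over all 15086 genes tested, 7721 had a higher knockout mean. In 0 of the 23 did all knockout values lie above all control values, against 2.33% of all genes. Without control 1 this held for 12 of the 23, against 7.28% of all genes. Control 1 had the highest activation score of the controls, so leaving it out favoured this count, which carries no evidence of its own. The largest differences were those of Col12a1, a fibril-associated collagen (1.56 ± 0.56), Lox, the collagen cross-linking oxidase (1.495 ± 0.52), Fmod, a small proteoglycan of collagen fibrils (1.46 ± 0.65) and Ccn4, a matricellular gene (1.27 ± 0.44, SE). Lrrc15 (0.03 ± 0.12), a marker of activated fibroblasts in tumours, and Acta2 (-0.23 ± 0.25), the smooth muscle actin of myofibroblasts, differed least. Acta2 is also a gene of vascular smooth muscle, and it was highest in control 3 (10.91) and lowest in knockout 2 (9.48). Tagln, another contractile gene, differed by 0.83 ± 0.34. Without knockout 1 and 4 the list had 21 genes higher and 2 lower, with a median of 0.25.

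Markers of resting fibroblasts and of fibroblasts in general showed no common direction. Of 17 tested genes 7 had a higher knockout mean and 10 a lower one (median -0.03), and 0 passed over all genes with limma. Tnxb, a tenascin of loose matrix (-0.43 ± 0.21), and Scara5, a receptor of universal fibroblasts (-0.38 ± 0.15), were the lowest, and Fbln2 (0.42 ± 0.18) and Col15a1 (0.41 ± 0.18) the highest. Tnxb was at 6.15 and 6.43 in knockout 1 and 4 and at 7.03 to 7.28 in the other 6 hearts, the same pair that was low in Gsn. Cd248 (0.00 ± 0.10) and Igfbp6 (-0.02 ± 0.11) differed least. Without knockout 1 and 4 the list had 13 genes higher and 4 lower (median 0.07).

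Of 6 genes of PDGF ligands and receptors, Pdgfra among them, 5 were higher and 1 lower (median 0.07), and 0 passed over all genes with limma. Pdgfc was at 6.28, 5.77, 5.81 and 5.78 in controls and at 6.70, 6.28, 6.42 and 6.78 in knockouts. It differed by 0.64 ± 0.15 (SE), and control 1 and knockout 2 met at 6.28. PDGF-C is a ligand of the alpha receptor. Pdgfa differed by 0.05 ± 0.09, Pdgfb by 0.00 ± 0.08, Pdgfd by -0.0041 ± 0.09 and the beta receptor gene Pdgfrb by 0.23 ± 0.17. Among 23 tested relatives and partners of the members, 12 were higher and 11 lower (median 0.02), and none reached an absolute difference of 0.5. The highest was Msn, the gene of moesin, which links podoplanin to actin (0.42 ± 0.17), and the lowest Prepl, a relative of the Fap peptidase (-0.30 ± 0.24, SE).

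**Figure D5:**
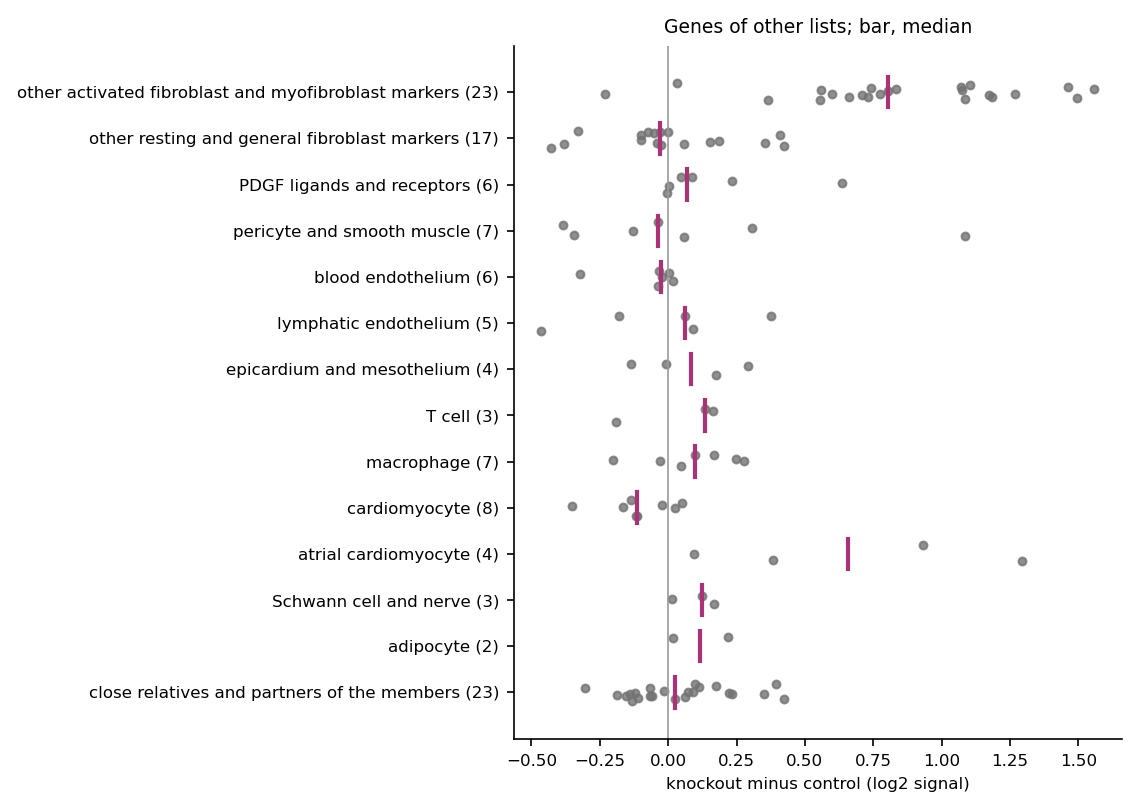
Knockout minus control difference (x axis, log2 signal) of each tested gene in 14 lists of fibroblast and other cell markers, number of genes in brackets, 1 point per gene with a purple bar at the median. The list of other activated fibroblast markers has a median of 0.80, the atrial list, with Myl7 and Sln high in knockout 2, one of 0.66, and the other 12 lists lie between -0.12 and 0.14.

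Markers of other cell types were set beside these values. The cardiomyocyte list had 6 of 8 genes lower (median -0.12), with summed linear signals of 33739 to 35043 in controls and 31215 to 34643 in knockouts, lowest in knockout 1. Pericyte and smooth muscle genes were higher in 3 and lower in 4 of 7 cases (median -0.04, sums 5123 to 5549 and 4055 to 5027). Blood endothelial genes were higher in 2 of 6 cases (median -0.03, sums 3183 to 3718 and 2767 to 3894), and the summed signal was lowest in knockout 1 for these lists too. Of 7 macrophage genes 5 were higher (median 0.10, sums 1311 to 1529 and 1340 to 1755). All 4 tested atrial genes were higher (median 0.66, sums 9199 to 9928 and 9957 to 11301, highest in knockout 2). Without knockout 2, left out after seeing the data, 2 were higher and 2 lower (median -0.04). Nppa, at 13.16 to 13.34 over all hearts, made up most of these sums, so they are no measure of atrial tissue. Myl7 and Sln were high in knockout 2 alone (9.02 and 9.31). The 3 tested Schwann cell genes (median 0.13) and the 2 tested adipocyte genes (median 0.12) were higher as well. Cnn1, a contractile gene of the smooth muscle list, was highest in knockout 1, at 7.13, 4.74, 4.92 and 5.65 in controls and 8.54, 6.11, 4.99 and 7.13 in knockouts. Whether cell composition took part in the member values was not tested.

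Among all tested genes other than the members, those most like the activation score over the 8 hearts were Bgn, a small proteoglycan (r = 0.994), Col12a1 (0.993), Fn1, the gene of fibronectin (0.993), Zfp185, an actin-associated LIM protein gene (0.992), and Dact1, a modulator of Wnt signalling (0.992). With group means removed each of these was still at 0.987 or more. Bgn differed between genotypes by 0.38 ± 0.14 and Fn1 by 1.17 ± 0.52 (SE). Meox1 had other neighbours: Sptan1, a spectrin gene (0.989), Csrp3, the muscle LIM protein gene (0.984), Osbpl5 (0.981), Fam227a (0.976) and Slc43a1, an amino acid transporter gene (0.969). Csrp3 differed by 0.10 ± 0.07 and Sptan1 by 0.21 ± 0.08. The resting score was most like Ebi3 (0.967), Itgb4 (0.954), Pias3 (0.954), Rpl21 (0.947) and Pced1a (0.946). None of these is a fibroblast marker in the lists, and their differences ran from 0.05 to 0.19. These are the highest of many correlations over 8 points and say nothing of shared control.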

How the data were processed

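Hearts had been kept frozen, and their total RNA was hybridised to Affymetrix arrays after biotin labelling, per the labels' protocols. For 8 arrays the authors deposited 41345 probe sets in log2 units. The submitters' processing notes name RMA and limma but no version of either. RMA normalizes by quantiles, so a shift common to most genes would not be visible. Nothing in the labels gives a genome build, filter or batch.

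The platform annotation gave 1 symbol to 23521 probe sets, several to 1814 and none to 16010. Of the former, 23328 were matched by Entrez identifier to the RefSeq table and took the symbol given there. A gene took its probe set with the highest mean, and 15086 genes with a mean at or above the 40th percentile of probe sets (3.80) were tested. Knockout was compared with control by limma 3.58.1 in R 4.3.3 (lmFit, eBayes) with Benjamini-Hochberg adjustment over all of them at 0.05. The step was tested on simulated data. Each SE is limma's, and each SD is over 4 hearts. A list's summed signal adds 2 to the power of the log2 values.

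Members and lists were chosen with earlier results of these data known. The genes named were all members, Cited4, from the activated and resting lists the 4 with the largest and the 2 with the smallest absolute difference, PDGF genes, relatives differing by at least 0.5, and the 5 genes most like each of 3 patterns. Tagln, Cnn1, Lyve1, Mmrn1, Myl7, Sln, Nppa, Meox2, Msn, Prepl and the C1qtnf relatives were named after their values were seen. The labels do not say whether replicate numbers pair the hearts, and the main fit took them as unpaired. Deviations of same-numbered hearts correlated at 0.36, 0.01, 0.28 and -0.03, which does not settle it. With the replicate block in the limma model, the SE of Cthrc1 was 0.21 in place of 0.59 and that of Pdpn 0.10 in place of 0.11. The alternatives were other filters, normalizations, variance models and scores, the replicate block, and leaving out arrays or members.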

Additional observations from a re-analysis of the deposited data

Results flagged for a closer look

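With 4 hearts in each group, 3 of 28 sets of values had 1 heart far from the other 3, with the gap to the nearest heart a larger share of the group's range than Dixon's critical value for 4 samples, where chance gives about 1 in 20. Srpx2 in control 1 was at 8.53 against 7.26 to 7.46 in the other controls, a gap of 0.844 of the range, and the activation score minus the resting score was 0.53 in the same heart against -0.70 to -0.67, a gap of 0.974. Fap in knockout 3 was at 6.03 against 6.56 to 6.61 in the other knockout hearts, a gap of 0.908.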

How the results depend on the processing

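All 6 activation markers kept a positive difference under the 13 alternatives run for each of them, and Gsn a negative one. The mean over a gene's probe sets and the replicate block could not change these differences. Each member has 1 probe set, and every replicate number occurs in both groups. Pdgfra had 12 positive and 1 negative. The activation score difference of 0.88 ran from 0.40 (without knockout 1 and 4) to 1.20 (without control 1), and the resting score difference of 0.12 was 0.31 without Gsn and -0.019 without Tcf21. Limma called 0 genes under 19 of 20 alternatives, among them the replicate block (0 calls, 2177 genes at an unadjusted p under 0.05, and the same 0.88 for the activation score, since the pairs are complete). When the leading principal component of the residuals was added to the model, it called 355 of 15086 (212 higher and 143 lower), 4 of the 10 members among them. That component was estimated from the same 8 arrays and then taken as known, and the cause of the calls was not tested. Without knockout 1 and 4, the Tcf21 difference was 0.19 and that of Gsn -0.03. Signals near background, such as those of the T cell genes, limit what small differences could show.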
